A study of Drosophila melanogaster with 3 samples.

Results

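Cytoplasmic ribosomal proteins are the protein part of the ribosome, the particle that translates messenger RNA in the cytoplasm. The genes described here are all genes of the deposited main count table whose FlyBase symbol starts with RpL or RpS and a digit, with sta and the stalk genes RpLP0, RpLP1 and RpLP2. The rule used symbols alone and no measured value. It gave 92 of the 17896 genes in the table, of which 50 belonged to the large subunit, 39 to the small subunit (sta, which encodes a small subunit protein, among them) and 3 to the stalk. Genes of the mitochondrial ribosome carry the prefix mRp and were not members.

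RNA was sequenced from whole third-instar larvae of Drosophila melanogaster homozygous for cyccY5 (CycC Y5). The allele removes Cyclin C, which pairs with the kinase Cdk8 in the Mediator complex, and homozygous larvae live on CycC supplied by the mother until the pupal stage. Each of the 3 libraries was prepared from total RNA of 10 pooled larvae at the wandering stage, shortly before pupariation. The w1118 control and Cdk8 K185 libraries of the study were not analysed here, so every value below is from CycC Y5 larvae, and the effect of losing CycC is not addressed. The labels do not state whether the larvae came from separate crosses, so the spread between libraries may be partly technical. The libraries are called 1, 2 and 3 after their titles, and the numbers imply no order.

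The libraries held 10222639, 10179342 and 12146443 counts on genes and transposon families. CycC had a count of 0 in each of them, with 11.9% of its span inside another listed gene. Other genes are at 0 in this table for reasons unrelated to genotype and no control library was analysed, so this count alone does not check the label. The 3 libraries were not alike in their most abundant messages. The 20 most counted features outside the ribosomal protein genes took 20.02%, 19.4% and 24.6% of the counts in libraries 1, 2 and 3. Among them were larval serum protein and other fat body genes: the 6 fat body markers summed to 30478, 26299 and 59527 counts per 1000000 counts (CPM). Lsp1alpha, a larval serum protein gene, changed the most of the 6, with counts of 6310, 9104 and 104261. Lsp2, another of the 6, had 9709, 8113 and 10956, so the markers did not all rise to a like degree in library 3. The 6 salivary gland (glue) markers summed to 6435, 2828 and 3989 CPM, with Sgs4 at 0 inside another listed gene. By the sum of the fat body markers and the 20 most counted other features library 3 stood apart. By the sum of the glue markers library 1 was the highest and library 2 the lowest. The counts of calls, the spread and the tests of single members are also given without library 3.

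The ribosome of flies, as of other eukaryotes, is built in the nucleolus from ribosomal RNA and a single molecule of nearly every ribosomal protein, while the acidic stalk proteins P1 and P2 are held in more than a single copy. Its subunits need their proteins in equal amounts, and in Drosophila the loss of a single copy of many of these genes gives the Minute phenotype of slow development and short bristles. Ribosomal protein messages are abundant, short and, in many animals, start with a pyrimidine tract through which the TOR pathway controls their translation. RpL32, better known as rp49, is widely used as an internal control for quantitative PCR in flies, and was used so in the study.

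Ribosomal protein genes took 7.92% of all counts in library 1 (810082 counts), 7.97% in library 2 (811147 counts) and 7.55% in library 3 (916507 counts), or 7.81% ± 0.23 (SD, n = 3). The 95% Wilson intervals of these shares, which cover counting error only, were 7.91% to 7.94%, 7.95% to 7.99% and 7.53% to 7.56%. The share of library 3 was therefore below that of the other libraries by more than counting error. When the 20 most counted other features were left out of the totals, the shares were 9.91%, 9.88% and 10.01%, and library 3 was no longer the lowest. The large subunit genes accounted for 4.22% ± 0.13 of all counts, the small subunit genes for 3.19% ± 0.10 and the stalk genes for 0.403% ± 0.007 (SD, n = 3 each). Of the 100 most counted features, 24 were ribosomal protein genes.

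Of the 92 genes, 85 had 10 or more counts in each of the libraries and entered the tests, and 7 did not. Of the 85, 78 had 3000 or more counts in each of them. These 78 genes are called the highly counted members below. Levels are given as CPM per kilobase of coding sequence of the canonical transcript, so that genes of different length can be compared. On that scale the tested members had a median of 1851, against 17.8 for the 9585 other coding genes that passed the same filter, and only 55 of those 9585 genes lay above the median of the members. Over all 92 members the median was 1795 ± 79 (SD of the median over 3 libraries).

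**Figure D1:**
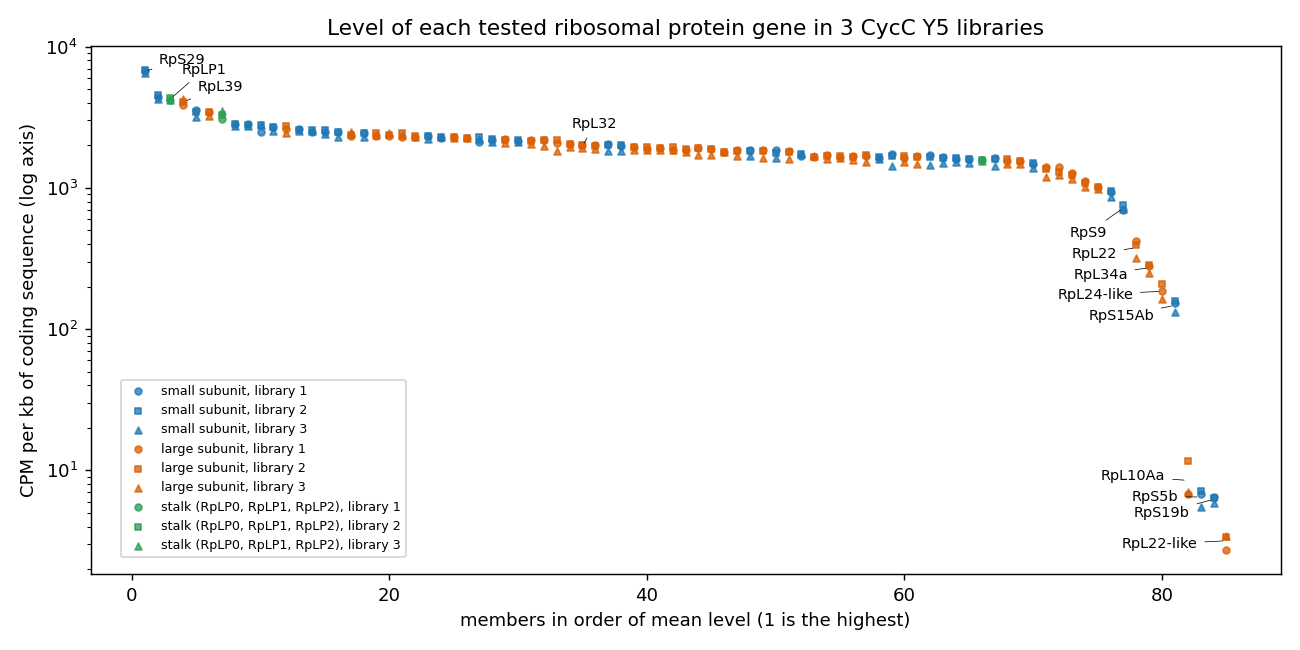
Level of each of the 85 tested members in each library, in CPM per kilobase of coding sequence on a log axis, in order of the mean level; symbols mark the library and colors the subunit. The 78 highly counted members form a plateau around a median of 1910, and 7 genes fall away below 300, down to RpL22-like at 3.17.

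The levels of the highly counted members were close to one another. Their median was 1910, their quartiles were 1625 and 2371, and 71 of the 78 lay within 2 times of the median. In the order of these levels, 62 of the 77 neighboring pairs differed by less than the larger SD over the 3 libraries, and 22 of the 77 kept 1 order in every library. That SD holds the differences between libraries that all genes share, so it is not the error of a difference between a pair of genes. The plot of levels by rank shows this as a plateau with a few genes above and a tail of genes below. The medians by subunit were 2161 for 32 small subunit genes, 1851 for 43 large subunit genes and 3276 for the 3 stalk genes, and the ranges of the subunits overlapped. The level fell with coding length (Spearman's rho of -0.45 across the 78 genes, which are not independent replicates and share libraries). Untranslated regions are counted but left out of the coding length. Per kilobase of transcript, against transcript length, the rho was -0.39. Each level is divided by the length it is set against, which alone makes such a rho more negative. No relation between expression and length is drawn from either value.

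The highest level per coding kilobase was that of RpS29, a small subunit protein of the 40S head, at 6687 ± 184 (SD, n = 3). Its counts were 11577, 11694 and 13227. RpS28b, another small subunit gene, followed at 4414 ± 146. RpLP1, which encodes the stalk protein P1, had 4261 ± 81, and RpL39, which encodes a very short protein at the exit tunnel, had 4061 ± 179. RpS26, whose product binds next to the messenger RNA at the exit of its channel, had 3396 ± 194. The coding sequences of RpS29, RpS28b and RpL39 are only 168, 195 and 153 bases long.

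Ranked per kilobase of the whole canonical transcript, RpS29 was no longer near the top. Its transcript of 1007 bases gave 1116 ± 31, close to the median of 1078 for the highly counted members. RpL39, with a transcript of 288 bases, was then the highest at 2158 ± 95, followed by RpS18 at 2018 ± 123 and RpLP1 at 1864 ± 36. RpL22 was the lowest at 308 ± 44, and RpL5, whose product binds the 5S ribosomal RNA, was next at 457 ± 14 for a transcript of 3835 bases. On this scale 73 of the 78 genes lay within 2 times of the median, and the small and large subunit medians were 1051 and 1078. The orders by coding and by transcript length had a Spearman's rho of 0.49 over these genes. The highest level was 17.7 times the lowest per coding kilobase, 7.01 times per transcript kilobase and 4.86 times per kilobase of transcript outside other listed genes. Both the order and the range thus depend on the length that is used, while the number within 2 times of the median was alike (71, 73 and 75 of 78).

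The most counted members were long genes. RpS3A, the only member on the small chromosome 4, had the highest counts at 22292, 22126 and 24856, followed by RpL7A with 19013, 18918 and 22232. The members otherwise lay on all major arms, with 23 on 3R, 20 on 2R, 19 on 2L, 15 on X and 14 on 3L. The 14 highly counted members on X had a median level per transcript kilobase of 861, with a range of 308 to 1637. The 64 autosomal ones had a median of 1105 and a range of 457 to 2158. The X range thus overlapped the autosomal range for nearly its whole width.

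As a class, the 92 members had short and simple genes. Their median coding length was 466.5 bases, against 1386 bases in the 9585 other tested coding genes. Their median 5′ untranslated region was 84.5 bases, against 148 bases, and they had a median of 3 exons, against 4. Within the listed spans of 29 members lie 76 genes for small nucleolar RNAs, the guides that direct chemical modification of ribosomal RNA. RpS5a alone holds 14 of them. All 76 were listed at a count of 0. Each lies inside another listed gene, so these counts of 0 are not a measure of their expression.

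The ubiquitin fusion genes and the stalk genes were described separately because their products differ from the rest. RpS27A and RpL40 each encode a ribosomal protein fused to ubiquitin, which is cut off after translation. RpS27A had counts of 11169, 11141 and 12655, and a level of 2300 ± 64. RpL40 had counts of 8177, 8560 and 8466, and a level of 2029 ± 193. Both lay between the quartiles of the highly counted members on this scale. Per kilobase of transcript RpS27A had 1818 ± 50 and RpL40 had 1182.5 ± 112.5, against a median of 1078. Of the stalk genes, RpLP0, the base of the stalk, had counts of 15282, 15151 and 17932 and a level of 1563 ± 10. RpLP1 had 14459, 14895 and 17217. RpLP2, which encodes the stalk protein P2, had 10584, 11356 and 14342 and a level of 3276 ± 215. The levels of RpLP1 and RpLP2 were above that of RpLP0 in every library. sta, whose product belongs to the small subunit and is related to the mammalian laminin receptor, had counts of 16855, 16514 and 17886 and a level of 1952 ± 117.

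RpS6, RpL41, RpS10a and RpL7-like had a count of 0 in all 3 libraries, and this is not a measure of their expression. RpS6 is a small subunit protein that is known as a phosphorylation target downstream of TOR and as an essential part of the ribosome, and RpL41 encodes a peptide of 25 residues. In the table a gene stands for its whole span, introns included, and genes nested within another listed gene are at 0 in many cases. RpS6 (X:7899624-7901331, minus strand, coordinates as in the deposited table, dm6) lies to 98.3% inside the span of the pseudogene CR33222, which had counts of 1, 3 and 1. RpL41 (2R:24903416-24903935, minus strand) lies wholly inside the sodium channel gene NaCP60E, which had counts of 241, 198 and 170. RpS10a (3R:27652760-27653363, plus strand) lies wholly inside tau, with counts of 436, 404 and 412. RpL7-like (2L:12056326-12058251, plus strand) shares 98.9% of its span with CG34164, which was itself at 0. All coding bases of these 4 genes lie inside another listed span. Whether their reads were discarded for that reason was not tested.

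**Figure D2:**
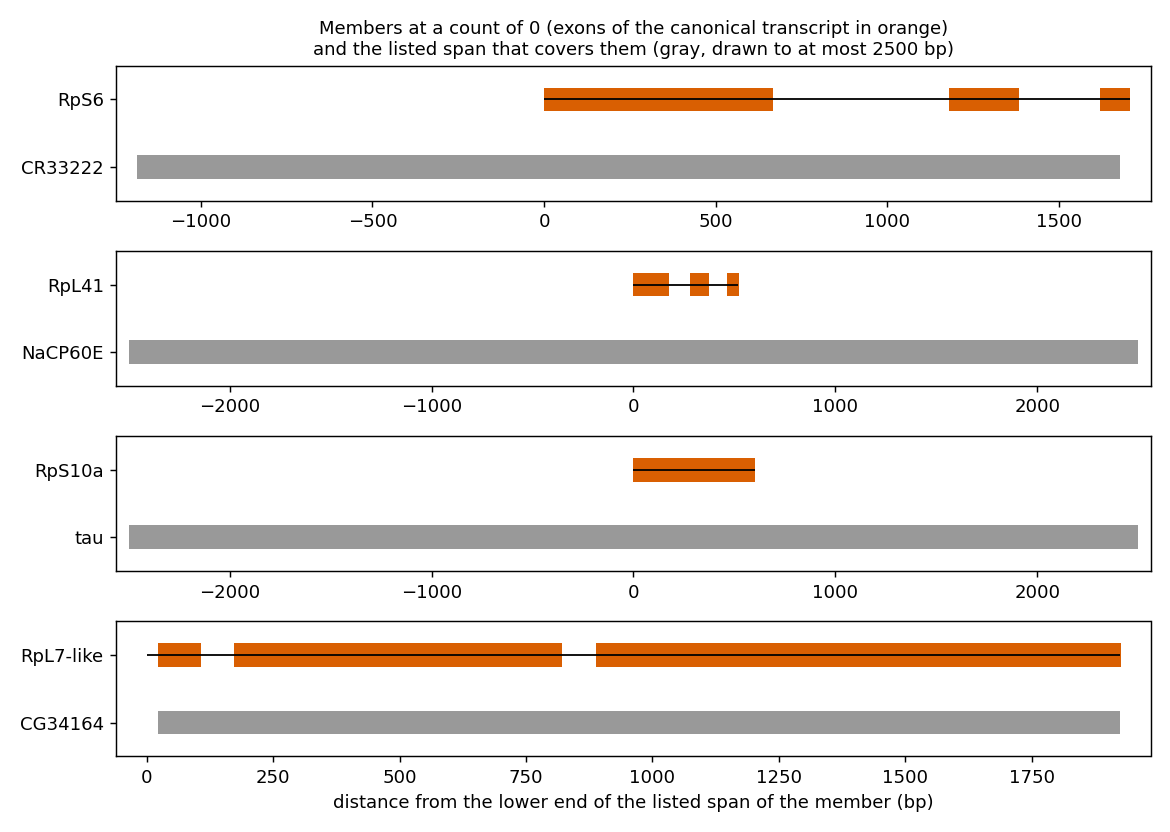
The 4 members with a count of 0, with the exons of the canonical transcript in orange, above the listed span of the gene that covers them in gray. The horizontal axis is the distance in bases from the lower end of the listed span of the member, and the gray spans of NaCP60E and tau go on beyond the drawn range; every coding base of each member lies over a gray span.

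Overlap touched 3 further members to a lesser degree. RpS9, whose product belongs to the small subunit, has 56.2% of its coding bases inside the antisense gene asRNA:CR45874. Its counts of 4161, 4502 and 5041 gave 720 ± 32 per coding kilobase, one of the lowest of the highly counted members. Per kilobase of transcript outside other listed genes it had 889, against a median of 1121. RpL22 has 29.4% of its coding bases inside lncRNA:CR42491, and its level per free kilobase was 468. RpL3, at the core of the large subunit, has 13.5% inside asRNA:CR31144 and had 1146. The 3 overlapping RNA genes all had a count of 0. Whether the overlap lowers the counts of these members was not tested.

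Several ribosomal proteins of Drosophila are encoded by more than a single gene, and some copies are known from the germ line. Copies were grouped by symbol, and RpL37-1 and RpL37-2 were added as a pair after the values were seen. In each of these pairs a copy carried nearly all counts or the larger part of them. The copies are named here in the order of less to more counted, so the direction of each ratio follows from that choice and is a description. An exact two-sided sign-flip test over the 3 libraries cannot give a p below 0.25, and gave 0.25 for each of the 10 pairs fitted (0.25 after Benjamini-Hochberg adjustment). Copies with like sequences can share reads, and the treatment of reads with several matches is not given in the sources used here, so the shares are uncertain where the copies are near-identical.

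**Figure D3:**
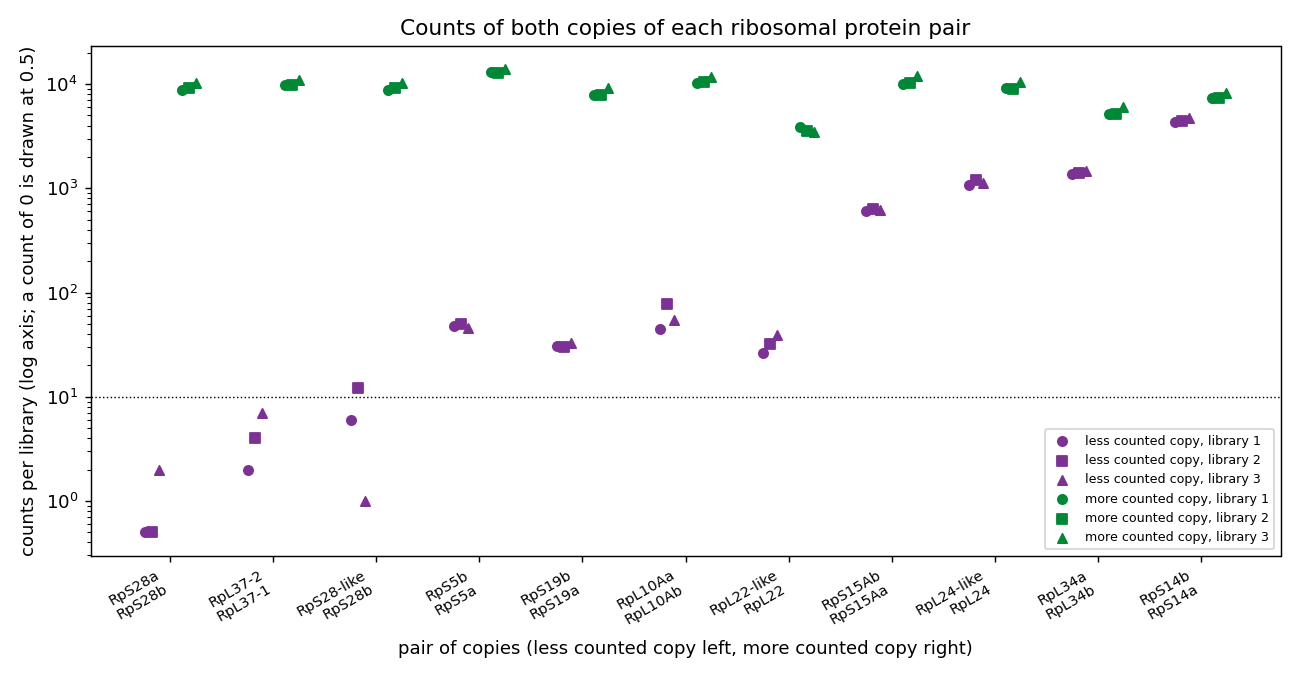
Counts of both copies of each pair in the 3 libraries, on a log axis, with the less counted copy on the left of each pair and the more counted copy on the right. Symbols mark the library, the dotted line is a count of 10, and a count of 0 is drawn at 0.5; the pairs run from RpS28a, with a highest count of 2, to RpS14b, with counts of 4334, 4396 and 4731.

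The RpS14 pair was the most even. RpS14b and RpS14a lie 220 bases apart on X and encode proteins of 151 residues each. RpS14b had counts of 4334, 4396 and 4731, against 7385, 7335 and 8280 for RpS14a. RpS14b thus held 37.0%, 37.5% and 36.4% of the pair in libraries 1, 2 and 3, with Wilson intervals that together ran from 35.5% to 38.4%. The mean share was 36.9% ± 0.6 (SD, n = 3), and the level per coding kilobase was 1.71 times lower than that of RpS14a. The levels of both copies added to 2480, above the median of 1910. In the RpL34 pair, RpL34a had counts of 1386, 1413 and 1481, against 5192, 5217 and 5964 for RpL34b. Its share was 20.8% ± 0.8, and its level was 3.68 times lower. Both pairs of copies stayed apart in every library.

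RpL24-like and RpS15Ab were present at an intermediate level. RpL24-like had counts of 1083, 1214 and 1131, against 9126, 9029 and 10493 for RpL24, a share of 10.7% ± 1.1 (SD, n = 3). RpL24-like resembles a yeast factor, Rlp24, that acts in the assembly of the large subunit. RpS15Ab had counts of 607, 626 and 623, against 9969, 10199 and 12051 for RpS15Aa. Its share was 5.74% and 5.78% in libraries 1 and 2 and 4.92% in library 3. The Wilson interval was 4.55% to 5.306% in library 3, against 5.312% to 6.20% in library 1 and 5.36% to 6.24% in library 2, so that it ended just short of theirs. The raw counts of RpS15Ab hardly moved between libraries while those of RpS15Aa were highest in library 3, which had the most counts in total. In CPM, RpS15Ab had 59.4, 61.5 and 51.3, and RpS15Aa had 975, 1002 and 992. Which of the copies moved thus depends on the scaling.

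The other copies were near the limit of detection. RpL22-like, a relative of RpL22 with known roles in the male germ line, had counts of 26, 32 and 39, against 3878, 3576 and 3454 for RpL22. Its share was 0.666%, 0.887% and 1.12%, with intervals that overlapped. RpS5b, known for its function in the female germ line, had counts of 48, 50 and 46, against 12922, 12650 and 13914 for RpS5a, a share of 0.364% ± 0.032. RpS19b, also known from germ cells, had counts of 31, 30 and 33, against 7846, 7884 and 9146 for RpS19a, a share of 0.377% ± 0.017. RpL10Aa had counts of 45, 77 and 55, against 10278, 10526 and 11619 for RpL10Ab, a share of 0.544% ± 0.158. These 4 copies were between 117 and 274 times lower per coding base than their partners. All of them were detected in each library, with mean levels between 3.17 and 8.48 CPM per coding kilobase.

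RpL37-2, RpS28-like and RpS28a did not reach a count of 10 in every library. RpL37-2 had counts of 2, 4 and 7, against 9873, 9729 and 10924 for RpL37-1, so that the upper end of its share was 0.132% in library 3. RpS28-like had counts of 6, 12 and 1, and RpS28a had 0, 0 and 2, against 8723, 9082 and 10165 for RpS28b. For RpS28a the floor of 3 counts in library 1 corresponds to 0.0344% of the pair. The counts of RpS28a do not exceed the floor in any library. RpL37-2 and RpS28-like exceeded it in 2 libraries each, so that a few reads were assigned to them. The germline markers, measured in the same whole larvae, were low as well: the 7 markers summed to 17.2, 16.4 and 13.3 CPM, and vas, which marks germ cells, had counts of 17, 32 and 25. nanos and zpg were listed at 0, but zpg lies inside another listed gene, so that its 0 is not a measure of expression. The 8 spermatocyte markers summed to 23.0, 27.9 and 23.0 CPM, with sa at 0 inside another listed gene. Most of that sum came from topi and mia, with means of 10.3 and 11.3 CPM. The means of aly, can, comr, tomb and nht lay between 0.186 and 1.20 CPM. What part germ cells have in the low counts of RpL22-like, RpS5b and RpS19b was not tested.

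The next comparison asked how far the counts of each gene differed between the 3 libraries of the same genotype. A chi-square test of homogeneity was made for each feature that passed the minimum of 10 counts, against library sizes scaled by the trimmed mean of M values (TMM), with Benjamini-Hochberg adjustment. Of the 85 tested members, 78 had an adjusted p under 0.05, that is 91.8%, against 39.4% of the 9898 features tested. That test weighs differences against counting error alone and gains power with depth. Among the 469 features with 3000 or more counts, 91.7% passed it. Of these, 77 of the 78 members passed, or 98.7%, and 353 of the 391 other features, or 90.3%. Of the 7 tested members with fewer counts, 6 did not pass. The members that did not pass were RpL40, RpL34a, RpL24-like, RpS15Ab, RpS5b, RpS19b and RpL22-like.

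Without library 3 only 25 of 85 members passed, or 29.4%, against 16.3% of all features. With 3000 or more counts in libraries 1 and 2, 31 of 78 members passed, or 39.7%, against 61.7% of 478 features. Most of the calls among the members thus needed library 3.

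Relative to TMM sizes, 82 of the 85 tested members were higher in library 3 than in library 1, and 80 were higher than in library 2. The median log2 ratio of the members was 0.16 for library 3 over library 1 and 0.19 for library 3 over library 2, against 0.01 and -0.01 for all tested features. For library 2 over library 1 the medians were -0.03 and 0.00. The sign depended on the scaling: relative to the total counts the members had medians of -0.08 for both ratios of library 3, while all features had medians of -0.23 and -0.28, and 60.1% of all features and 68 of 85 members passed the test of homogeneity. The distance between the members and the median feature is the same under every scaling by construction, since a scaling shifts all ratios alike. It was 0.16 log2 units for library 3 over library 1, 0.20 for library 3 over library 2, and -0.03 for library 2 over library 1. The summed fat body markers were also highest in library 3, and their part in this shift was not tested.

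**Figure D4:**
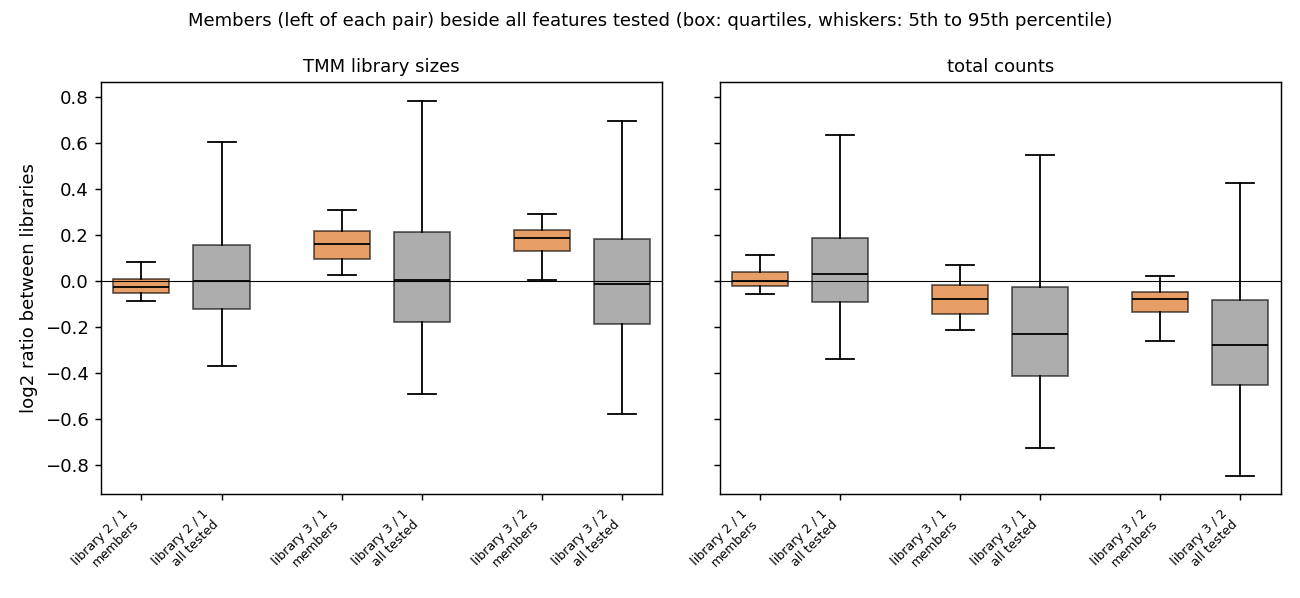
Log2 ratio of the counts between pairs of libraries for the 85 tested members (orange, left of each pair of boxes) and for all 9898 tested features (gray), scaled by TMM sizes in the left panel and by total counts in the right panel. Boxes span the quartiles, the line is the median and whiskers run from the 5th to the 95th percentile; the members lie above the median feature in both ratios of library 3 under either scaling.

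The members' quartiles for library 3 over library 1 were 0.09 and 0.22 with TMM sizes. The coefficient of variation (CV) over the 3 libraries had a median of 7.37% in the tested members, against 10.3% in all tested features, and 71 of 85 members were below the median of all features. Most features have fewer counts than the members, so the highly counted members were set beside the 391 other features with 3000 or more counts. Their median CV was 7.41%, against 9.36% in those features, and 59 of 78 members were below the median of the others. The contrast depended on the libraries: these medians were 1.71% and 4.50% without library 3, 8.09% and 9.03% without library 2, and 9.65% and 9.68% without library 1. With total counts as library sizes they were 3.58% and 11.1%. The biological coefficient of variation of edgeR, which is shrunk toward a trend with abundance, showed no such gap: its median was 0.163 in the highly counted members and 0.165 in the other features with as many counts. Over all tested features that are not members it was 0.142.

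**Figure D5:**
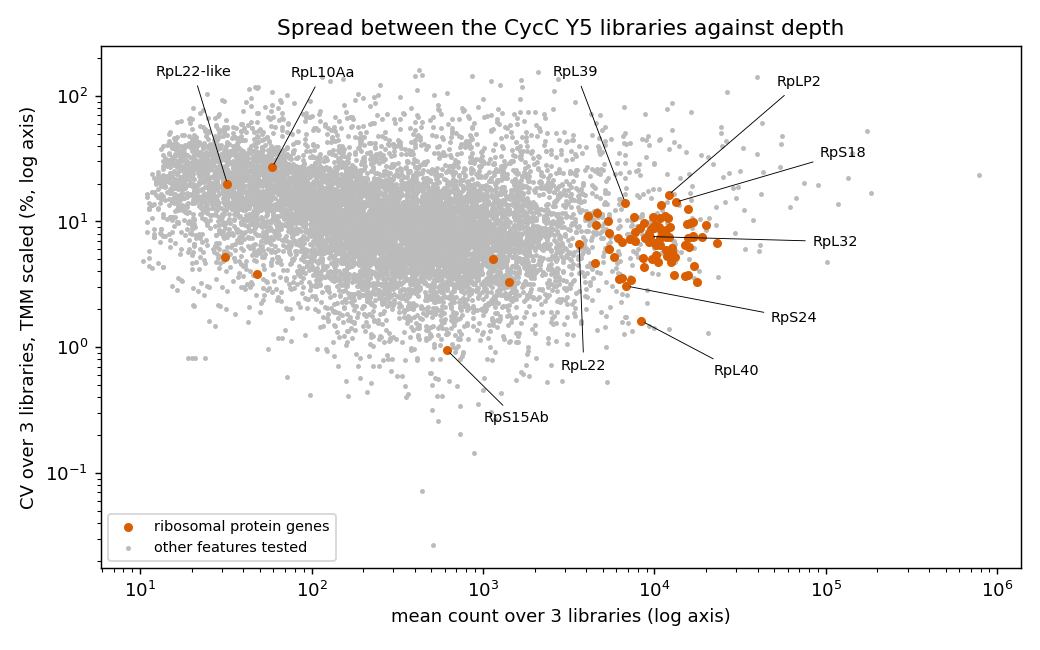
Coefficient of variation over the 3 libraries (TMM scaled, in percent) against the mean count of each of the 9898 tested features, both on log axes, with ribosomal protein genes in orange and other features in gray. With this scaling the highly counted members lie between 1.62% (RpL40) and 16.3% (RpLP2), and RpS15Ab has the smallest spread of the members at 0.945%.

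The spread of single genes depended on the scaling, and the order given here is that with TMM sizes. The genes with the largest spread were of 2 kinds. RpL10Aa (CV of 26.9%) and RpL22-like (19.8%) had few counts. RpL10Aa was highest in library 2 and had an adjusted p of 0.0373 by the chi-square test. It was 0.166 without library 1, 0.522 without library 2 and 0.0340 without library 3. RpL22-like had an adjusted p of 0.418 by the same test, and 0.724 without library 3. The others were abundant and high in library 3. RpLP2, with 10584, 11356 and 14342 counts, had a CV of 16.3% and a log2 ratio of 0.43 for library 3 over library 1. RpS18, a small subunit gene with counts of 11626, 12871 and 15397, had a CV of 14.2% and a ratio of 0.39. RpL39, with 6055, 6365 and 7853, had a CV of 14.1% and a ratio of 0.36. With the total counts as library sizes their ratios were 0.19, 0.16 and 0.13, so these 3 genes were higher in library 3 than in library 1 under both scalings. Their CVs with total counts were only 6.56%, 6.08% and 4.40%, and with TMM sizes but without library 3 they were 3.82%, 6.04% and 2.38%. Without library 3 the adjusted p of the chi-square test was 0.000805 for RpLP2, 8.49e-10 for RpS18 and 0.217 for RpL39.

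The genes with the smallest spread with TMM sizes all had a ratio of library 3 over library 1 below the median of 0.16 in the members. RpS15Ab had a CV of 0.945% and RpL40 one of 1.62%. RpS24, a small subunit gene with counts of 7026, 6717 and 6870, had a CV of 3.06% and a log2 ratio of -0.04 for library 3 over library 1 with TMM sizes. RpL34a had a CV of 3.30%. RpL3, with counts of 17954, 17282 and 18222, had a CV of 3.32% and a ratio of 0.01. With total counts the ratios of RpS24 and RpL3 were -0.28 and -0.23. The CVs were then 9.39% for RpS15Ab, 9.51% for RpL40, 10.01% for RpS24, 6.78% for RpL34a and 8.13% for RpL3, all above those of RpLP2, RpS18 and RpL39, and the smallest of the tested members was that of RpL13A at 0.355%. With TMM sizes but without library 3 they were 1.02%, 2.08%, 4.33%, 0.210% and 3.85% in the same order. RpL22 was the gene farthest below the set. Its counts of 3878, 3576 and 3454 gave a ratio of -0.18 with TMM sizes and -0.42 with total counts, so that it was lowest in library 3 under both. The adjusted p of the chi-square test was 8.07e-07 for RpL22, and 0.567 without library 1. That of RpS24 was 0.00557 with all libraries, 0.104 without library 1 and 0.16 without library 2, and that of RpL3 was 2.05e-08, and 0.719 without library 2. Without library 3 the adjusted p of the same chi-square test was 0.000367 for RpL22, 0.00345 for RpS24 and 6.41e-06 for RpL3.

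To compare the genes with one another regardless of the scaling, the summed counts of the members served as library size, a choice made after the data were seen. Then 52 of 85 members differed between libraries, or 61.2%, against 52.3% of all features. Of these 52 members, 26 had a larger and 26 a smaller share in library 3 than in library 1. Shares of a common total must fall for some genes where they rise for others, so rises beside falls are built in. Without library 3, 18 of 85 members differed, or 21.2%, against 15.9% of all features. Most features have fewer counts than the members, and the test gains power with depth. No share for features of like depth was computed with this scaling, so no difference between members and other features is drawn from these shares. The share of the highly counted members in their own total moved by at most 0.26 log2 units upward, for RpLP2, and fell by 0.35 for RpL22. RpLP2 held 1.31%, 1.40% and 1.56% of the ribosomal protein counts in libraries 1, 2 and 3, and RpL22 held 0.479%, 0.441% and 0.377%. RpLP1 and RpLP0, which form the stalk with RpLP2, moved by 0.07 and 0.05.

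RpL32 (FBgn0002626, 3R:30045229-30046161, minus strand, large subunit) was typical of the set. Its counts were 9046, 8978 and 10237, or 870 CPM on average, and its level of 1973 ± 53 per coding kilobase was near the median. Its CV of 7.58% was larger than that of 49 of the 85 tested members and than that of 35.4% of all tested features. With total counts its CV was 2.70%, larger than that of 24 tested members, and it was 1.69% with TMM sizes but without library 3. Its log2 ratio for library 3 over library 1 was 0.17 with TMM sizes and -0.07 with total counts. It held 1.12%, 1.11% and 1.12% of the ribosomal protein counts, with an adjusted p of 0.826 by the chi-square test against the summed counts of the members. Without library 3 its adjusted p by the chi-square test with TMM sizes was 0.319, against 3.94e-23 with it. RpL32 thus followed the set and shared its shift in library 3.

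Other genes of the translation machinery were set beside the members. Of all tested features 39.4% passed the test, and of the 469 with 3000 or more counts 91.7%. The test gains power with depth, so the numbers that passed cannot be compared between lists of unlike depth. Of the 73 mitochondrial ribosomal protein genes, 71 were tested and 7 passed, all 7 higher in library 3 than in library 1 by TMM. Their median level was 23.3 CPM per coding kilobase with a range of 5.90 to 63.2, against 1851 in the tested members, and their median log2 ratio for library 3 over library 1 was 0.20. The 7 elongation factor genes had a median level of 1244, all passed, and their median ratio was 0.10. They ranged from eEF1alpha2, an isoform gene of the factor that brings tRNA to the ribosome, at 67.9 to eEF1alpha1 at 6734. Of the initiation factors 13 of 16 were tested and 9 passed, with a median level of 196 and a median ratio of 0.10. Of the ribosome biogenesis genes 15 of 17 were tested and 3 passed, with a median level of 28.8 and a median ratio of -0.08. Among the untested genes of these lists, eIF4B, eIF6, nop5 and Myc were at 0 and lie inside another listed gene. Their counts of 0 are not a measure of expression. With total counts every ratio here is lower by the shift given above, so that each of these list medians falls below 0.

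Of 8 growth regulators known to act on ribosomal protein genes or their messages, 7 were tested and 4 passed. These calls depend on depth as well. The median log2 ratio of the 7 for library 3 over library 1 was -0.06 with TMM sizes, and that of M1BP was 0.26. mTor, S6k and Dref did not pass. raptor was listed at 0 without lying wholly inside another listed gene, and whether it was expressed was not tested. Thor, the 4E-BP that restrains cap-dependent initiation, had counts of 8134, 7124 and 7992. M1BP, a factor that binds the promoters of many ribosomal protein genes, had 322, 407 and 390. Trf2, which acts at the core promoters of ribosomal protein genes, had 1211, 1030 and 997, and larp, which binds messages of the TOP type, had 1734, 1489 and 1727. Xrp1, a transcription factor induced when ribosomal protein genes are lost, had counts of 11463, 9871 and 10773 and passed the test (adjusted p of 3.03e-31, chi-square). Its partner Irbp18 was listed at 0, and lies inside another listed gene. No sample without a loss of CycC was analysed, so these levels have no reference.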

How the data were processed

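The authors deposited unnormalized read counts for genes and, in a further table, for transposon families. Those of 3 cyccY5 libraries, each from 10 pooled larvae, were used. The processing notes name STAR and dm6, and the counting program is not given in the sources used here. The listed length of each of 17896 genes equals its span, and 17864 had a symbol. In the table of 124 families the header is shifted by 1 cell, which was corrected. 11 columns of other libraries were not used.

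CPM were computed from both tables' totals. Coding lengths, exons and coordinates came from the BDGP6.54 annotation, whose coordinates equalled 99.7% of the genes'. With a single genotype no test between groups was made. Library sizes were scaled by TMM (edgeR 4.0.16), dispersions came from an intercept-only fit in edgeR, and alternatives from DESeq2 1.42.0 (R 4.3.3). Features under 10 counts in any library were left out, log2 ratios had a pseudocount of 0.5, and the threshold of the adjusted p was 0.05. Intervals and tests used SciPy 1.17.1 (Python 3.11.15, NumPy 2.4.6, pandas 2.3.3, matplotlib 3.10.9). The chi-square, dispersion and sign-flip steps were tested on simulated data.

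The members, lists and tests were chosen with earlier results of these data known. Genes were named by a rule: RpL32, the 5 highest and 5 lowest levels, all copies, the stalk genes, sta, both ubiquitin fusions, the 5 largest and 5 smallest CV, and every member at 0 or under 10. RpS9, RpL5, RpS3A and RpL7A were chosen after their values were seen. Promoter and protein sequences were not used here.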

Additional observations from a re-analysis of the deposited data

How the results depend on the processing

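The share of counts on ribosomal protein genes, 7.81%, stayed within its SD when the main table alone gave the total, without the members named -like, and without each library, and was 9.93% when the 20 most counted other features left the total. The median level of 1795 CPM per coding kilobase was 606 with the listed span as length and 1062 per kilobase of transcript free of other genes, which was added after seeing the data; both divide by longer or other stretches. TMM sizes, the members counted and leaving out a library kept it within its SD. The number of members that differed between libraries, 78, was 25 to 75 when a library was left out (25 without library 3) and, in alternatives added later, 31 with 3000 or more counts in libraries 1 and 2 and 18 with the members' own total and no library 3. It stayed within 1.5 times of 78 under DESeq2 size factors, total counts, filters of 50 or none and a threshold of 0.01. The median log2 ratios of the members changed sign when scaled by total counts: 0.0020 against -0.03 for library 2 over 1, -0.076 against 0.16 for library 3 over 1, and -0.079 against 0.19 for library 3 over 2. Relative to the median feature they cannot move with the scaling, and moved by less than 0.1 with a pseudocount of 1, a minimum of 50 and without the -like members. The median biological coefficient of variation of the members was 0.163, and 0.0718 from DESeq2's gene-wise dispersions, which are not shrunk, against 0.0659 in other features. The median CV of the highly counted members, 7.41%, was 1.71% to 9.65% when a library was left out and 3.58% with total counts. The CV of single members moved by over 1.5 times for 65 of 85 with total counts and for 69 without library 3. The direction of all 10 ratios between copies was kept without the correction for coding length, with a pseudocount of 1 and without each library. No paired analysis was possible because only cyccY5 larvae were analysed here. The promoter motif counts planned with their alternative window were not run. Depth limits the test of homogeneity for the 7 tested members under 3000 counts, of which 6 did not pass, and for RpS28a, RpL37-2 and RpS28-like, which were not tested.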
